A study of Mus musculus with 4 samples.

Results

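The genes described here make, break down, bind and sense hyaluronan, a long unsulfated sugar polymer of the extracellular matrix. They are the synthases Has1, Has2 and Has3, the hyaluronidases Hyal1 and Hyal2, the proteoglycans Acan and Vcan, the binding proteins Hapln1 and Tnfaip6, and the receptor Cd44. They were taken by symbol, and all 10 were found among the 33641 gene symbols of each library and lay above 0 in all 4 libraries. With TGFbeta the RNA levels of Acan, Vcan and Cd44 rose, by 11.9-fold, 2.38-fold and 2.12-fold, while none of the synthases or hyaluronidases passed the test.

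All cells were primary cardiac fibroblasts from wild-type C57BL/6J mice aged 12 weeks, grown to 80% confluency, and 2 libraries came from cells given 10 ng/ml TGFbeta and 2 from cells given vehicle. TGFbeta is a growth factor that turns fibroblasts into matrix-producing myofibroblasts, and the labels do not say how long it was applied. Every culture, vehicle included, had also taken up 4-thiouridine, a uridine analogue added 20 and 4 h before crosslinking with light of 368 nm. The design text describes RNA eluted from the RNA-binding protein HuR (PAR-CLIP), whereas the sample labels describe total RNA, so the levels below are levels in the libraries and a transcript's binding to HuR cannot be separated from its abundance. Neither an input nor a control precipitation was analysed here.

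Hyaluronan is made at the plasma membrane by hyaluronan synthases from UDP-glucuronic acid and UDP-N-acetylglucosamine, and is extruded into the matrix. Aggrecan and versican bind it through their amino-terminal domains and carry chondroitin sulfate chains, link proteins lock them onto it, and hyaluronidases and Cemip shorten it. Hyaluronan and versican fill the cardiac jelly of the developing heart and the provisional matrix of injured tissue, while aggrecan is best known from cartilage.

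The deposited values are TPM, a level scaled by transcript length and to a fixed total per library, so the depth of the libraries is unknown. Between 20945 and 21671 genes lay above 0 per library, and the top 100 genes held 29.8% and 27.0% of the total in the TGFbeta libraries, against 23.3% and 24.4% in the vehicle libraries. The fibroblast collagen gene Col1a1 and 9 other defining fibroblast markers were all present. Col1a1 (log2 change 0.91, limma adjusted p = 0.0958) and Col3a1 (-0.57, 0.172) moved in opposite directions without passing. At an unadjusted limma p under 0.05, 1 of the 10 was higher with TGFbeta and 4 were lower. Of these 10 markers, Pdgfra and Tcf21 fell with TGFbeta, calls that were lost without vehicle library 1 (limma adjusted p = 0.0970 and 0.135) and without vehicle library 2 (0.0933 and 0.154), that of Pdgfra also without TGFbeta library 1 (0.0513) and that of Tcf21 without TGFbeta library 2 (0.0574). Levels were compared with limma on log2(TPM + 1) over the 15815 genes that averaged 1 TPM or more, and a gene was called at a Benjamini-Hochberg adjusted p under 0.05 over all of them. The labels do not say whether libraries came from separate cultures or animals, so p-values measure only the spread between these samples. An exact permutation test of 2 against 2 libraries cannot go below p = 0.333 and was not used.

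Of the 10 genes, 9 reached the minimum level and were tested, and Hapln1 did not. Among the 9, 3 were called higher, where 1.54% of all tested genes were, and 0 were called lower, where 4.38% were. None of the 9 was lower at an unadjusted p under 0.05 either. Over all 15815 tested genes, 3873 had an unadjusted limma p under 0.05. That number and the shares called above are the background for the counts given with the fibroblast markers above and with each gene list below. Both TGFbeta libraries lay above both vehicle libraries for 5 of the 9, against 15.5% of all tested genes, and below both for 2, against 39.8%. The median log2 change of the 9 was 0.26 and that of all tested genes was -0.13. Scaling each library to its median shifted the median of all genes by 0.15 and gave 421 genes higher and 401 lower, where the TPM as deposited gave 244 higher and 692 lower. Under that scaling every tested gene of the 10 kept its direction. Quantile normalization gave 333 higher and 401 lower.

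**Figure D1:**
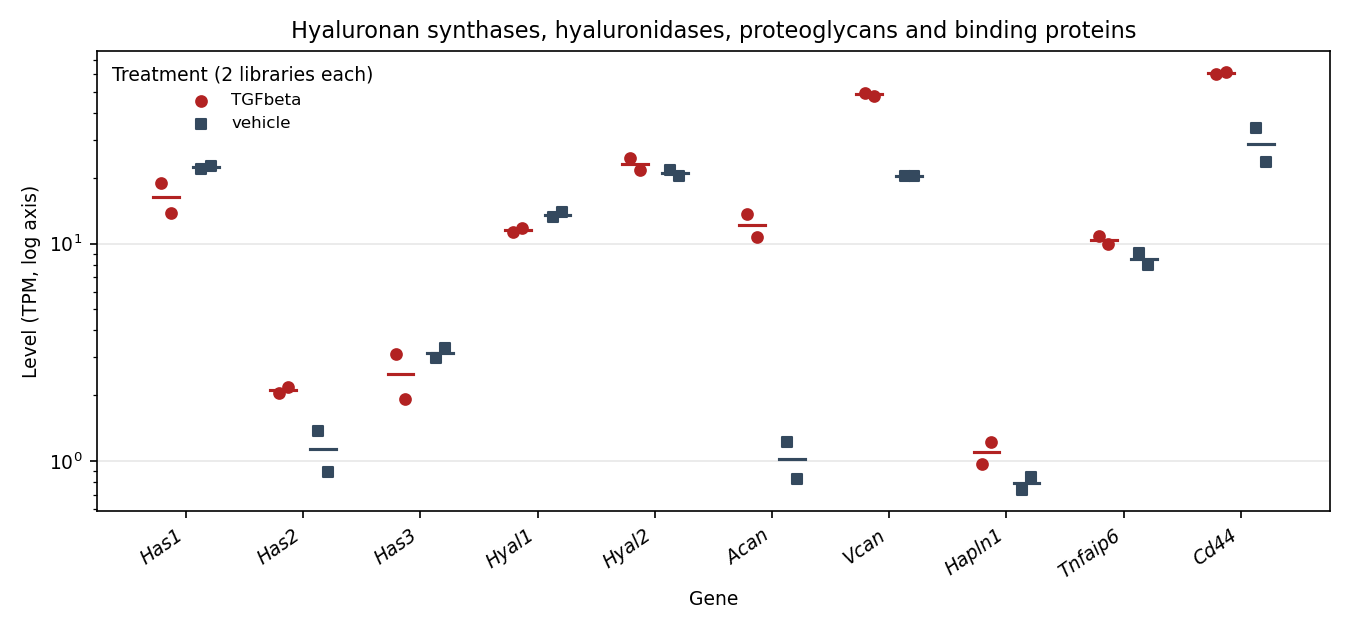
TPM of the 10 hyaluronan genes in each library on a log axis, TGFbeta libraries left of vehicle libraries, with the mean of each group as a bar. Acan stands at 13.7 and 10.7 TPM with TGFbeta, against 1.22 and 0.827 TPM with vehicle, and the pairs of points of Has3 and Hyal2 overlap between treatments.

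Among the synthases, Has1, which makes hyaluronan at the cell surface (ENSMUSG00000003665.7, GRCm38 chromosome 17, 17843323 to 17855205, minus strand), had 19.0 and 13.8 TPM with TGFbeta, against 22.1 and 22.9 TPM with vehicle. Both TGFbeta libraries were below both vehicle libraries, and TGFbeta library 2 was the lowest of the 4. The log2 change of Has1 was -0.45 (95% interval -0.92 to 0.02, limma adjusted p = 0.219), which did not pass.

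Has2, the synthase on which early heart development depends in mice (ENSMUSG00000022367.7, chromosome 15, 56665627 to 56694539, minus strand), had 2.04 and 2.18 TPM with TGFbeta, against 1.38 and 0.892 TPM with vehicle. The TGFbeta libraries lay close together and above both vehicle libraries, at a ratio of mean TPM of 1.86. The log2 change of Has2 was 0.55 (95% interval -0.01 to 1.12, limma adjusted p = 0.214), which did not pass. The exons of Has2 overlap those of Has2os on the opposite strand, and whether reads were assigned by strand is not given in the sources used here.

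Has3, whose product makes hyaluronan of shorter chain length in cultured cells (ENSMUSG00000031910.14, chromosome 8, 106870242 to 106884566, plus strand), had 3.10 and 1.94 TPM with TGFbeta, against 2.98 and 3.32 TPM with vehicle. The libraries of the treatments overlapped (log2 change -0.26, 95% interval -0.85 to 0.34, limma adjusted p = 0.571). Exons of Has3 overlap those of Chtf8 on the opposite strand, which had 57.6 and 54.8 TPM with TGFbeta, against 61.8 and 57.5 TPM with vehicle, so reads of this pair may not have been told apart.

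Summed over the 3 synthases, the level was 24.2 and 17.9 TPM with TGFbeta, against 26.5 and 27.1 TPM with vehicle. Has1 made up 78.7% and 77.0% of that sum with TGFbeta and 83.6% and 84.4% with vehicle, so it was the main synthase transcript in all 4 libraries. Has2 made up 8.45% and 12.2% with TGFbeta, against 5.21% and 3.29% with vehicle. The groups do not overlap in either share, and these shares were not tested. The ratio of Has1 to Has2 TPM was 9.31 and 6.32 with TGFbeta, against 16.1 and 25.6 with vehicle.

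The sugar nucleotides that the synthases consume come from enzymes whose RNA did not pass the test: of 10 listed genes for their supply, 10 were tested, with 0 called in either direction (limma; unadjusted p under 0.05 for 1 higher and 2 lower) and a median log2 change of -0.18. Ugdh, which makes UDP-glucuronic acid, had 57.3 and 78.5 TPM with TGFbeta, against 107 and 89.6 TPM with vehicle (log2 change -0.54, limma adjusted p = 0.156). Gnpnat1, on the route to UDP-N-acetylglucosamine, had 15.7 and 23.7 TPM with TGFbeta, against 14.0 and 9.59 TPM with vehicle (log2 change 0.68, limma adjusted p = 0.183). Gfpt2, which feeds fructose 6-phosphate into the same route, Nagk, which salvages N-acetylglucosamine, and Gnpda1, which runs the route in reverse, had log2 changes of -0.26, -0.32 and -0.42 (limma adjusted p = 0.302, 0.199 and 0.334).

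Hyal1, a lysosomal hyaluronidase (ENSMUSG00000010051.15, chromosome 9, 107576927 to 107581710, plus strand), had 11.2 and 11.8 TPM with TGFbeta, against 13.2 and 14.0 TPM with vehicle. Both TGFbeta libraries lay below both vehicle libraries, and the change did not pass (log2 change -0.22, 95% interval -0.60 to 0.16, limma adjusted p = 0.446). Hyal1 shares exon sequence on the same strand with Hyal3 and with Naa80, listed under its older symbol Nat6, and so its value may hold reads of these neighbours. Nat6 had 23.4 and 21.2 TPM with TGFbeta, against 27.8 and 37.9 TPM with vehicle.

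Hyal2, a membrane-anchored hyaluronidase that cleaves long chains (ENSMUSG00000010047.12, chromosome 9, 107567945 to 107572779, plus strand), had 24.8 and 21.8 TPM with TGFbeta, against 21.9 and 20.4 TPM with vehicle. The libraries overlapped (log2 change 0.13, 95% interval -0.24 to 0.50, limma adjusted p = 0.650). Hyal1 and Hyal2 together had 36.0 and 33.6 TPM with TGFbeta and 35.2 and 34.4 TPM with vehicle, and Hyal2 gave the larger part in every library.

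A different gene of hyaluronan breakdown fell. Of 10 other listed breakdown genes, 5 were tested, 1 was called lower and 0 higher (limma; unadjusted p under 0.05 also for 0 higher), and Hyal4, Hyal5, Hyal6 and Spam1 were listed at 0 in every library. Cemip, also called KIAA1199 in humans, is needed for hyaluronan breakdown by cultured human skin fibroblasts (ENSMUSG00000052353.13, chromosome 7, 83932857 to 84086502, minus strand). It had 134 and 179 TPM with TGFbeta, against 814 and 588 TPM with vehicle.

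Cemip was the most abundant of the hyaluronan breakdown genes in the vehicle libraries, and its means of 157 ± 31.6 TPM with TGFbeta and 701 ± 160 TPM with vehicle (SD, n = 2 each) differ by a ratio of 4.47 to 1 in favour of vehicle. The log2 change was -2.15 (SE 0.22, limma adjusted p = 0.00988), and the groups did not overlap. The call was lost without vehicle library 1 (limma adjusted p = 0.0970), without vehicle library 2 (0.0933) and when every gene above 0 was tested (0.0759). Hexa and Gusb, lysosomal enzymes that trim the ends of the chains, had log2 changes of -0.23 and -0.12 and did not pass (limma adjusted p = 0.477 and 0.700), and Gusb turned to 0.04 with median scaling. Tmem2, a relative of Cemip, had 6.79 and 6.42 TPM with TGFbeta, against 8.24 and 5.79 TPM with vehicle. Its log2 change was -0.06 (limma adjusted p = 0.896) and turned to 0.09 with median scaling.

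**Figure D2:**
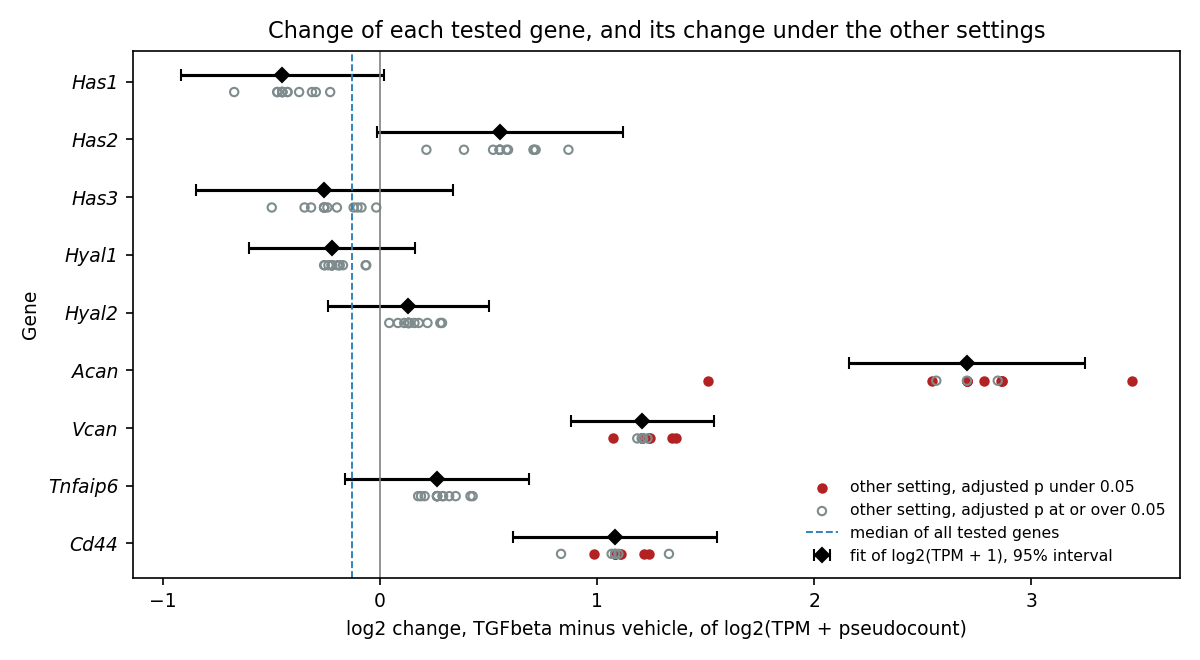
Log2 change, TGFbeta minus vehicle, of the 9 tested hyaluronan genes with the 95% interval of the limma fit, the change under each of up to 14 other settings as a circle (filled where called) and the median of all tested genes as a dashed line. Acan, Vcan and Cd44 have intervals above 0, at 2.70, 1.21 and 1.08, and the intervals of the other genes include 0.

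Aggrecan showed the widest change of the 9 tested genes. Acan encodes the large proteoglycan that gives cartilage its resistance to compression (ENSMUSG00000030607.7, chromosome 7, 79053483 to 79115099, plus strand). It had 13.7 and 10.7 TPM with TGFbeta, against 1.22 and 0.827 TPM with vehicle. In the vehicle libraries the values of Acan overlapped those of Has2 and Hapln1, and both TGFbeta libraries lay far above.

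Acan averaged 12.2 ± 2.08 TPM with TGFbeta and 1.02 ± 0.279 TPM with vehicle (SD, n = 2 each), a ratio of 11.9. The log2 change was 2.70 (SE 0.22, 95% interval 2.16 to 3.25, limma adjusted p = 0.00633), on a scale that understates the change of a gene near 1 TPM, and Acan was number 10 of the 15815 tested genes by increase. With a pseudocount of 5 the log2 change was 1.51 and with 0.1 it was 3.46, both called. In these bulk libraries, more cells with the transcript and more transcript per cell cannot be told apart. The call was lost without vehicle library 1 (limma adjusted p = 0.0828), without vehicle library 2 (0.0932) and when every gene above 0 was tested (0.0604).

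Markers of cartilage cells were measured beside it. Of 17 listed markers 13 were tested, of which Col9a2 rose and Cnmd fell (limma; unadjusted p under 0.05 for 3 higher and 6 lower). Matn1 was listed at 0 in all 4 libraries, and the summed level was 260 and 259 TPM with TGFbeta and 262 and 260 TPM with vehicle. Much of that sum was Sox9, with 103 and 83.3 TPM with TGFbeta, against 73.9 and 59.5 TPM with vehicle, and Comp, with 74.1 and 84.4 TPM with TGFbeta, against 100.4 and 112 TPM with vehicle. Col2a1, the main collagen of cartilage, had 10.6 and 20.5 TPM with TGFbeta, against 5.31 and 6.31 TPM with vehicle, and did not pass (log2 change 1.22, limma adjusted p = 0.0768). Col9a2, a chain of cartilage collagen IX, had 15.3 and 16.3 TPM with TGFbeta, against 3.88 and 2.92 TPM with vehicle (log2 change 1.94, limma adjusted p = 0.00988), a call lost in each fit with 3 libraries (adjusted p between 0.0554 and 0.108). Cnmd, a cartilage glycoprotein, had 0.992 and 1.22 TPM with TGFbeta, against 10.1 and 9.79 TPM with vehicle (log2 change -2.38, limma adjusted p = 0.00633), a call lost without vehicle library 1 (0.0887) and without vehicle library 2 (0.0933). Col9a3, another collagen IX chain, went the other way, with 5.62 and 5.14 TPM with TGFbeta, against 8.42 and 10.3 TPM with vehicle. It did not pass (log2 change -0.70, limma adjusted p = 0.0901). Sox5 and Sox6 were also lower in both TGFbeta libraries, without a call (log2 change -0.49 and -0.31, limma adjusted p = 0.156 and 0.356). The part of these markers in the level of Acan was not tested.

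Versican rose as well. Vcan encodes the hyaluronan-binding proteoglycan of developing and injured soft tissue (ENSMUSG00000021614.16, chromosome 13, 89655312 to 89742509, minus strand). It had 49.4 and 47.7 TPM with TGFbeta, against 20.4 and 20.5 TPM with vehicle. The libraries of each treatment nearly coincided, with means of 48.5 ± 1.14 TPM with TGFbeta and 20.4 ± 0.0721 TPM with vehicle (SD, n = 2 each), a ratio of 2.38.

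The log2 change of Vcan was 1.21 (SE 0.13, 95% interval 0.88 to 1.54, limma adjusted p = 0.0116). The call was lost in each fit with 3 libraries, with adjusted p of 0.107 and 0.129 without vehicle library 1 and 2 and of 0.0650 and 0.0594 without TGFbeta library 1 and 2, and when every gene above 0 was tested (0.0604). These are gene totals, so the splice forms of versican, which differ in the number of chondroitin sulfate attachment regions, are not separated.

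Acan and Vcan together had 63.0 and 58.5 TPM with TGFbeta, against 21.6 and 21.3 TPM with vehicle. Acan made up 21.7% and 18.4% of that sum with TGFbeta, against 5.65% and 3.88% with vehicle. Per 100 TPM of Vcan there were 27.7 and 22.5 TPM of Acan with TGFbeta, against 5.99 and 4.04 TPM with vehicle. Versican thus stayed the larger of the pair in all 4 libraries while the aggrecan share was higher in both TGFbeta libraries; the difference between the 2 genes' changes was not tested.

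The 250 bases before the RefSeq start sites of Acan, Vcan and Cd44 (GRCm38.p6, 5′ to 3′ on the gene's strand) are shown because these are the genes that rose. Capitals mark any of 6 motifs searched on both strands: CAGAC, bound by Smad proteins, then GGCGC, a GC-rich Smad site, then TGANTCA, the AP-1 site, then GGAATG, bound by Tead proteins, then CCAAT, and then TATAAA. The windows lie at chr7:79052976-79053225 for Acan, chr13:89742513-89742762 for Vcan and chr2:102901666-102901915 for Cd44.
Acan promoter window: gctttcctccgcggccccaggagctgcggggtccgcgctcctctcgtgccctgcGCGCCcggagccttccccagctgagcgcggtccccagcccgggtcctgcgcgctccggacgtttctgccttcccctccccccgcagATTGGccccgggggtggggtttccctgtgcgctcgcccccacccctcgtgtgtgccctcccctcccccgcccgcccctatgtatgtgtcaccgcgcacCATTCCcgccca
Vcan promoter window: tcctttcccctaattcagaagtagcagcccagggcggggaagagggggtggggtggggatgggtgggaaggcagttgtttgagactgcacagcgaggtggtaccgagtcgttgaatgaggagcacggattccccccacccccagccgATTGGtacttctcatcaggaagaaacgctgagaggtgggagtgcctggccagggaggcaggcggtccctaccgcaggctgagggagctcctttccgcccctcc
Cd44 promoter window: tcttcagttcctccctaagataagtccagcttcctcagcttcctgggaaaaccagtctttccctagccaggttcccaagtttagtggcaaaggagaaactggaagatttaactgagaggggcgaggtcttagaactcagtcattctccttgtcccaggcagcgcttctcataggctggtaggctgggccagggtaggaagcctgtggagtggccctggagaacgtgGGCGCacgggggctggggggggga

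None of the 3 windows held CAGAC, and none held the AP-1 site or a TATAAA box. The Acan window held 1 copy each of the GC-rich Smad site, the Tead site and CCAAT (all read on the other strand), the Vcan window 1 copy of CCAAT and the Cd44 window 1 copy of the GC-rich Smad site. Among all 32851 windows of this length, 42.2% held CAGAC, 32% the GC-rich Smad site, 6.75% the AP-1 site, 12.6% the Tead site, 33.8% CCAAT and 12.4% the TATAAA box. Acan had 74.4% G and C, Vcan 62.4% and Cd44 56.4%, against a median of 52.4% over all windows. Of the 10 genes 8 had a window, and CAGAC was in those of Has1 with 2 copies and of Hyal1, Hapln1 and Tnfaip6 with 1 copy each. Matches describe letters and show no binding.

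Hapln1, the link protein that fixes aggrecan and versican to hyaluronan (ENSMUSG00000021613.9, chromosome 13, 89539796 to 89611652, plus strand), had 0.970 and 1.22 TPM with TGFbeta, against 0.734 and 0.842 TPM with vehicle. Both TGFbeta libraries were above both vehicle libraries, but the mean lay under the minimum for the test. With every gene above 0 tested, its log2 change was 0.23 (limma adjusted p = 0.500). Hapln1 is a neighbour of Vcan on chromosome 13, with 43.7 kb and 0 protein-coding genes between them.

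The other lecticans and link proteins lie in the same kind of pair. Hapln3, on the minus strand, and Acan, on the plus strand, converge with 0.002 kb between their ends, and Hapln3 had 1.49 and 0.541 TPM with TGFbeta, against 0.351 and 1.19 TPM with vehicle, so its groups overlapped. The brain proteoglycan Bcan had 1.89 and 1.03 TPM with TGFbeta, against 1.52 and 0.508 TPM with vehicle, and was likewise not separated. Ncan, Hapln2 and Hapln4 averaged under 1 TPM over the 4 libraries.

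Tnfaip6, or TSG-6, which transfers heavy chains of inter-alpha-inhibitor onto hyaluronan (ENSMUSG00000053475.5, chromosome 2, 52038009 to 52056686, plus strand), had 10.9 and 9.96 TPM with TGFbeta, against 9.09 and 7.95 TPM with vehicle. The treatments did not overlap, and the log2 change of 0.26 (95% interval -0.16 to 0.69, limma adjusted p = 0.412) did not pass. The heavy-chain gene Itih2 had 5.64 and 6.99 TPM with TGFbeta, against 9.16 and 10.7 TPM with vehicle (log2 change -0.58, limma adjusted p = 0.138).

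Of 21 other listed receptors and binding proteins 11 were tested, and 1 was called lower and 0 higher (limma; unadjusted p under 0.05 for 1 higher and 3 lower). Ptx3, a pentraxin that joins heavy chains in the hyaluronan network, fell: it had 148 and 172 TPM with TGFbeta, against 370 and 277 TPM with vehicle (a ratio of vehicle to TGFbeta means of 2.03, limma adjusted p = 0.0370). The call was lost in each fit with 3 libraries, with adjusted p between 0.0863 and 0.168, and without an intensity trend (0.0630). C1qbp, a hyaluronan-binding protein found mainly in mitochondria, had 98.4 and 124 TPM with TGFbeta, against 70.4 and 67.4 TPM with vehicle, and did not pass (log2 change 0.67, limma adjusted p = 0.0618). Hmmr, the motility receptor RHAMM, changed by -0.64 on the log2 scale and Itih3, a heavy chain, by -0.78, without a call (limma adjusted p = 0.104 and 0.225).

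Cd44, the main surface receptor for hyaluronan (ENSMUSG00000005087.17, chromosome 2, 102811141 to 102901665, minus strand), had 60.5 and 61.8 TPM with TGFbeta, against 33.9 and 23.7 TPM with vehicle. The TGFbeta libraries nearly coincided while the vehicle libraries stood apart, and the groups did not overlap. The means were 61.1 ± 0.953 TPM with TGFbeta and 28.8 ± 7.18 TPM with vehicle (SD, n = 2 each), a ratio of 2.12.

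The log2 change of Cd44 was 1.08 (SE 0.19, 95% interval 0.61 to 1.55, limma adjusted p = 0.0353). It was lost without vehicle library 1 (limma adjusted p = 0.0953), without vehicle library 2 (0.181), without TGFbeta library 1 (0.116), without TGFbeta library 2 (0.124), without an intensity trend (0.0583) and with every gene above 0 (0.113). Leukocytes carry much Cd44: of 14 leukocyte and macrophage markers 9 were tested and 0 called (limma; unadjusted p under 0.05 for 0 higher and 1 lower), and their sum was 66.9 and 73.0 TPM with TGFbeta, against 80.2 and 100.2 TPM with vehicle. Most of that sum was Lyz2, with 42.9 and 48.1 TPM with TGFbeta, against 55.2 and 66.4 TPM with vehicle. Cd68 had 9.57 and 9.13 TPM with TGFbeta, against 11.2 and 15.6 TPM with vehicle (log2 change -0.46, limma adjusted p = 0.233). C1qb averaged 2.51 TPM with TGFbeta and 1.73 TPM with vehicle and was higher in 2 of 2 TGFbeta libraries, while C1qa and C1qc overlapped between treatments. Smooth muscle and pericyte markers summed to 429 and 392 TPM with TGFbeta, against 445 and 467 TPM with vehicle, with Cnn1 and Mcam called higher and Notch3 lower of 8 tested. Most of that sum was Smtn, with 284 and 236 TPM with TGFbeta, against 285 and 301 TPM with vehicle. Notch3 had 21.1 and 17.4 TPM with TGFbeta, against 74.0 and 83.9 TPM with vehicle. The median log2 change of the 8 was 0.425 (limma; unadjusted p under 0.05 for 3 higher and 1 lower). The calls of Cnn1 and Mcam were lost in each fit with 3 libraries (adjusted p between 0.0852 and 0.163 for Cnn1 and between 0.104 and 0.181 for Mcam), that of Notch3 without vehicle library 1 (0.0852) and without vehicle library 2 (0.0933), and that of Cnn1 also without an intensity trend (0.0589). The part of leukocyte, smooth muscle and pericyte markers in the Cd44, Vcan and Acan levels was not tested.

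**Figure D3:**
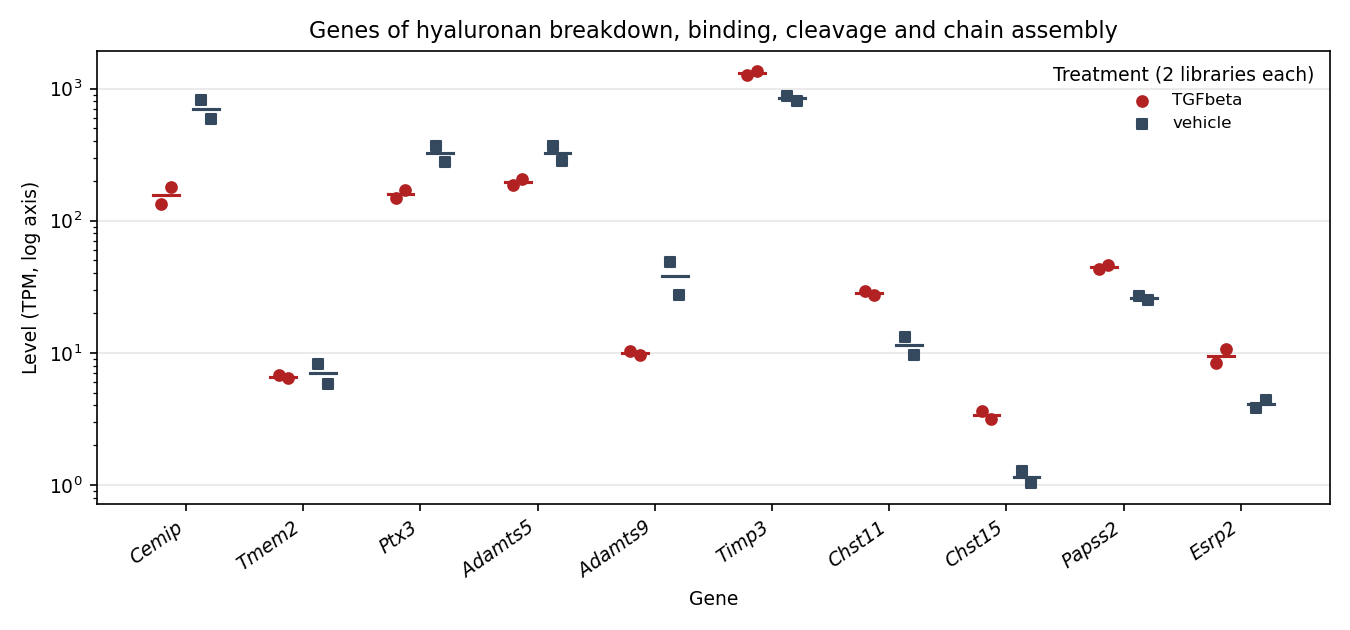
TPM in each library, on a log axis, of 10 partner genes, TGFbeta libraries left of vehicle libraries, with the mean of each group as a bar. The called genes Cemip, Ptx3 and Adamts9 are lower in both TGFbeta libraries and the called genes Chst11, Papss2 and Esrp2 higher in both, while Tmem2, Adamts5, Timp3 and Chst15 were not called.

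Splicing of Cd44 is directed in human epithelial cells by the ESRP proteins. Esrp2 rose: it had 8.37 and 10.7 TPM with TGFbeta, against 3.79 and 4.41 TPM with vehicle (log2 change 1.04, SE 0.20, limma adjusted p = 0.0435), while Esrp1 was listed at 0.11 TPM in TGFbeta library 1 and at 0 in the other 3 libraries. Of 12 listed partners, splicing factors and sheddases of Cd44, 11 were tested and 1 was called higher and 0 lower (limma; unadjusted p under 0.05 for 4 higher and 2 lower). The Esrp2 call was lost in each fit with 3 libraries (adjusted p between 0.106 and 0.204). Gene totals do not show which Cd44 exons were used.

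Mmp14, the membrane protease that sheds Cd44, had 295 and 264 TPM with TGFbeta, against 183 and 187 TPM with vehicle, and narrowly missed the call (log2 change 0.59, limma adjusted p = 0.0582). Spp1, or osteopontin, a Cd44 ligand, had 18.9 and 35.3 TPM with TGFbeta, against 15.5 and 13.1 TPM with vehicle (log2 change 0.82, limma adjusted p = 0.159). The secreted protease Mmp9 and the proteoglycan Srgn had log2 changes of -0.70 and -0.66 (limma adjusted p = 0.131 and 0.145).

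Enzymes that cut aggrecan and versican, with their inhibitor Timp3, formed a list of 8 genes, of which 7 were tested, 1 called lower and 0 higher (limma; unadjusted p under 0.05 for 1 higher and 2 lower). Adamts9, a protease that cleaves versican, fell: it had 10.4 and 9.68 TPM with TGFbeta, against 49.0 and 27.4 TPM with vehicle (log2 change -1.77, SE 0.28, limma adjusted p = 0.0260). Adamts5, the main aggrecanase of mouse cartilage, had 188 and 207 TPM with TGFbeta, against 368 and 284 TPM with vehicle, and did not pass (log2 change -0.71, limma adjusted p = 0.0655). The Adamts9 call was lost in each fit with 3 libraries (adjusted p between 0.0924 and 0.114).

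Timp3, an inhibitor of these proteases, had 1257 and 1349 TPM with TGFbeta, against 871 and 812 TPM with vehicle (log2 change 0.63, limma adjusted p = 0.0624). Adamts8, which averaged under 1 TPM and was not tested, had 1.38 and 1.46 TPM with TGFbeta, against 0.134 and 0.237 TPM with vehicle, without overlap. Adamts1 and Adamts4 had log2 changes of 0.22 and -0.21 (limma adjusted p = 0.484 and 0.710), with overlapping groups. The summed level of 12 epicardial and mesothelial markers was 86.2 and 100.1 TPM with TGFbeta, against 212 and 172 TPM with vehicle, and most of it was Aldh1a2, with 56.2 and 69.1 TPM with TGFbeta, against 167 and 121 TPM with vehicle. Of the 12 markers 6 were tested, and Aldh1a2 and Rspo1 fell, both calls being lost in each fit with 3 libraries (adjusted p between 0.0727 and 0.154 for Aldh1a2 and between 0.0701 and 0.174 for Rspo1) and that of Aldh1a2 also without an intensity trend (0.0550). At an unadjusted limma p under 0.05, 0 of the 6 were higher and 3 were lower. Upk3b had 7.32 and 6.77 TPM with TGFbeta, against 9.19 and 12.1 TPM with vehicle (log2 change -0.52, limma adjusted p = 0.174). Krt19 was also lower in both TGFbeta libraries (log2 change -0.22, limma adjusted p = 0.620). Wt1 had 2.28 and 2.49 TPM with TGFbeta, against 1.80 and 1.44 TPM with vehicle, and did not pass (limma adjusted p = 0.353), and the values of Tbx18 overlapped. The part of these markers in the levels of Cemip, Ptx3 and Adamts9 was not tested.

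Chondroitin sulfate, the chain that aggrecan and versican carry, is assembled by 25 listed genes, of which 24 were tested, 2 called higher and 0 lower (limma; unadjusted p under 0.05 for 7 higher and 1 lower). Their median log2 change was 0.20, beside -0.13 over all tested genes. Of all 15815 tested genes, 1.54% were called higher and 4.38% lower, and 3873 had an unadjusted limma p under 0.05. Chst11, a sulfotransferase that acts on the 4 position of N-acetylgalactosamine, had 29.2 and 27.5 TPM with TGFbeta, against 13.3 and 9.65 TPM with vehicle (log2 change 1.25, SE 0.19, limma adjusted p = 0.0247). Papss2, which makes the sulfate donor and is needed for cartilage growth, had 43.1 and 46.6 TPM with TGFbeta, against 27.0 and 25.2 TPM with vehicle (log2 change 0.76, SE 0.14, limma adjusted p = 0.0380). Both were higher in 2 of 2 TGFbeta libraries.

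The Chst11 and Papss2 calls were lost in each fit with 3 libraries, with adjusted p between 0.0948 and 0.163 for Chst11 and between 0.112 and 0.222 for Papss2. Papss2 was also lost without an intensity trend (0.0628). Chst15, which adds a sulfate to already 4-sulfated chains, had 3.63 and 3.15 TPM with TGFbeta, against 1.28 and 1.03 TPM with vehicle, at the edge of the threshold (log2 change 1.02, limma adjusted p = 0.0501). Xylt1, which starts the chains on the core protein, had 9.33 and 7.51 TPM with TGFbeta, against 4.73 and 4.69 TPM with vehicle (log2 change 0.72, limma adjusted p = 0.0872). The polymerase gene Chsy1 had 25.6 and 25.1 TPM with TGFbeta, against 19.4 and 14.1 TPM with vehicle (log2 change 0.59, limma adjusted p = 0.131).

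**Figure D4:**
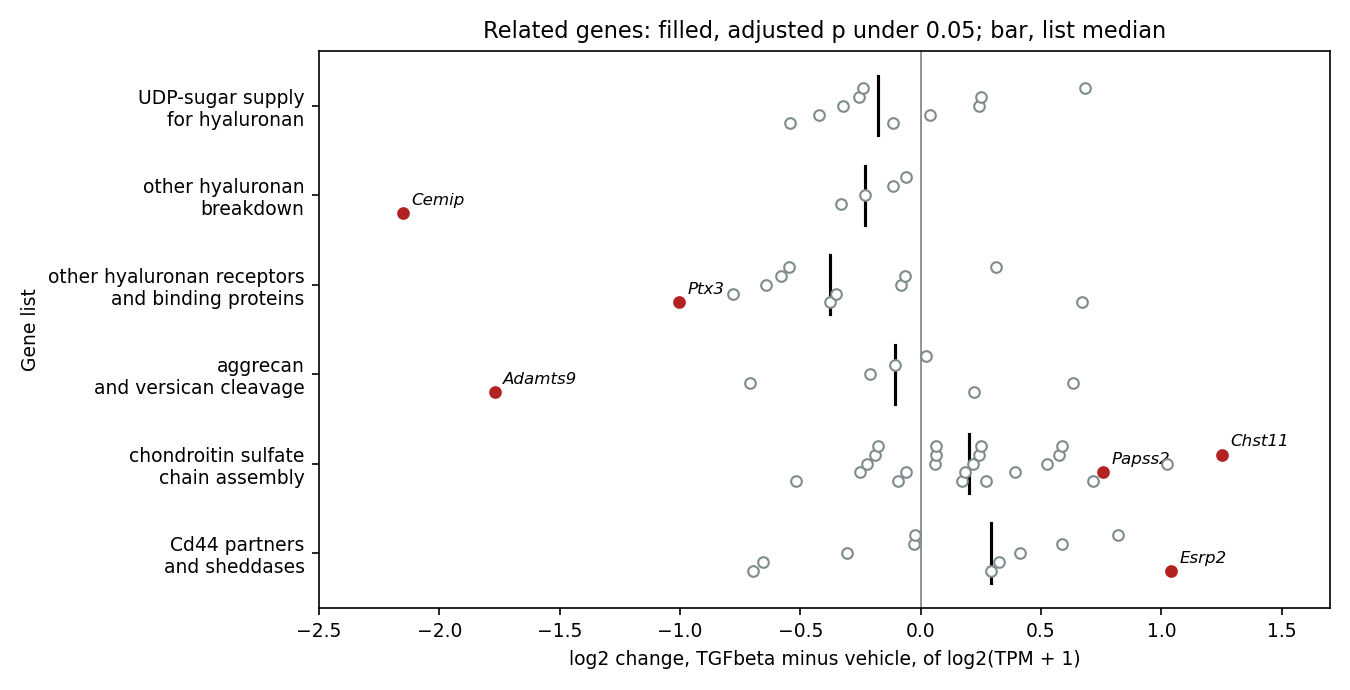
Log2 change, TGFbeta minus vehicle, of every tested gene in each list of hyaluronan and proteoglycan genes, with called genes named and the median of each list marked. The list of chondroitin sulfate genes has a median of 0.20 and that of other receptors and binding proteins of -0.38, beside -0.13 over all tested genes.

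By level, which TPM allows to be compared between genes within a library, Cd44 was the highest of the 10 genes with TGFbeta, followed by Vcan, Hyal2, Has1, Acan, Hyal1, Tnfaip6, Has3, Has2 and Hapln1. Acan and Hyal1 were not separated by their ranges, nor were Has3 and Has2. In the vehicle libraries the order was Cd44, Has1, Hyal2, Vcan, Hyal1, Tnfaip6, Has3, Has2, Acan and Hapln1, and Hyal2 with Vcan, Has2 with Acan, and Acan with Hapln1 overlapped. The 10 genes summed to 195 and 183 TPM with TGFbeta, against 127 and 115 TPM with vehicle.

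HuR is known to bind AU-rich stretches of 3′ untranslated regions, and so the longest annotated 3′ untranslated region of each gene (GENCODE M21) was read for ATTTA. Of the 10 genes 8 held it, against 69.6% of 13699 tested protein-coding genes, and 7 held the longer TATTTAT, against 30.3%. Per kb, Has1 had 13.3 copies in only 301 bases, Tnfaip6 8.39 in 715 bases and Vcan 4.69 in 1919 bases, against a median of 1.31 over all genes. These stood at the 99.7, 98.7 and 92.8 percentile. Acan had 2.43 copies per kb and Cd44 2.01, and Hyal1 and Hyal2 had none. The regions ran from 301 bases (Has1) to 4074 bases (Has3), against a median of 1174. Those of Has2, Has3, Hyal1, Hyal2, Vcan, Hapln1 and Cd44 were longer than this median. A longer region has more room for a copy, and the counts of genes with a copy are not adjusted for length. For Tnfaip6, the denser of the binding proteins, and for Vcan and Cd44, which rose, the 30 bases with the most copies are shown with ATTTA in capitals. They lie at bases 640 to 669, 1000 to 1029 and 558 to 587 after the stop codon.
Tnfaip6 AU-rich window: tATTTAagctgaATTTAtattaggATTTAa
Vcan AU-rich window: agccatacggATTTAATTTAttggatgtta
Cd44 AU-rich window: gctATTTAtctttagtaagctATTTAtctt

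Among the densest members, Vcan was called higher, while Has1 (log2 change -0.45) and Tnfaip6 (0.26) did not pass. The difference between their changes was not tested. Hapln1, next at 3.71 copies per kb and the 87.4 percentile, lay under the minimum level for the test. The letters show neither binding by HuR nor its effect, which these libraries do not measure without an input.

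The protein-coding genes whose pattern over the 4 libraries lay nearest to each called gene were found by the distance of centred log2(TPM + 1) values, among 13188 genes. Among those nearest to Acan were Notch4 at 0.15, Wisp1 at 0.20, Rflnb at 0.30 and Kcnj15 at 0.31. Notch4, a Notch receptor, had 151 and 106 TPM with TGFbeta, against 20.8 and 15.8 TPM with vehicle. Wisp1, the matricellular gene in the study title, had 153 and 141 TPM with TGFbeta, against 25.3 and 22.0 TPM with vehicle.

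Nearest to Vcan were Gadd45b at 0.07, Pdzrn3 at 0.07, Cdh10 at 0.07, Pramef12 at 0.09 and Pkp1 at 0.10. Gadd45b, a stress-induced gene, had 257 and 255 TPM with TGFbeta, against 112 and 117 TPM with vehicle. Nearest to Cd44 were Thbs1 at 0.04, Pycr1 at 0.06, Nedd9 at 0.10, Psph at 0.10 and Mthfd2 at 0.11, of which Psph missed the call (limma adjusted p = 0.0506). Thbs1, which encodes the matrix protein thrombospondin 1, had 915 and 906 TPM with TGFbeta, against 505 and 365 TPM with vehicle. Like Cd44 it was lower in vehicle library 2 than in vehicle library 1. These distances rest on 4 points and carry no test. The added 1 TPM shrinks the change of genes near or below that level, so a near pattern need not mean a like ratio. Pramef12, for example, had 1.775 and 1.891 TPM with TGFbeta, against 0.2031 and 0.2725 TPM with vehicle. Cdh10 and Pkp1 were also low with vehicle. Acan stood near 1 TPM with vehicle, so its distances carry the same limit.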

How the data were processed

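RNA was sequenced from 2 TGFbeta and 2 vehicle libraries. The authors deposited TPM per gene symbol, per the file headers, with a total that was checked to be 1000000 in each library. Which aligner, quantifier, genome build and gene models were used is not given in the sources used here. Positions come from GENCODE M21 (GRCm38), with 32159 symbols matched as they stand, 286 by an older name and 1196 unmatched. Promoter windows come from RefSeq (GRCm38.p6).

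Groups were compared with limma 3.58.1 under R 4.3.3 (lmFit, eBayes with an intensity trend) on log2(TPM + 1), two-sided, treatment as the only term, for genes with a mean of at least 1 TPM, with Benjamini-Hochberg adjustment over all of them. The fit was also run on simulated data in which only more abundant genes were changed, so that run does not bear on genes near 1 TPM. A log2 change is TGFbeta minus vehicle; ratios are of mean TPM. Named list genes are the called members or, where fewer than 3 were called, those with the largest change, up to 5 per list; a few that this rule or the nearest patterns give are not reported here. The members, lists and tests were chosen with earlier results of these data known. The alternatives tried were every gene above 0, a mean of at least 5 TPM, pseudocounts of 0.1 or 5, median scaling, quantile normalization, no trend, a robust fit, protein-coding genes alone, the replicate number as a block, and each library left out; then the lone library is assumed to vary like the other group.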

Additional observations from a re-analysis of the deposited data

How the results depend on the processing

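Of the 15815 tested genes 936 were called (3873 at an unadjusted limma p under 0.05). The number was 0 with every gene above 0 tested (4348 at an unadjusted p under 0.05), 602 without an intensity trend and 1681 with protein-coding genes alone. Leaving out 1 library gave between 0 and 203 genes, with 0 without vehicle library 1 and 0 without vehicle library 2 (3033 and 2407 at an unadjusted p under 0.05). Of the 10 hyaluronan genes, 3 were called higher as reported, 0 with every gene above 0, 2 without an intensity trend and between 0 and 1 with 1 library left out, where Acan was the 1 when TGFbeta library 1 or TGFbeta library 2 was left out. The causes were not tested. The 9 tested hyaluronan genes kept their direction under all settings in which they were tested.

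The replicate number as a block gave 631 called genes and kept the 3 hyaluronan genes, while Papss2 (limma adjusted p = 0.0801) and Esrp2 (0.0557) were no longer called. Same-numbered libraries did not deviate together (correlation -0.05), so the numbers were not taken to pair the libraries.

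Among other named genes near 0, Gusb turned to 0.038 with median scaling and 0.012 with quantile normalization, and ran from -0.272 to 0.040 with 1 library left out. Tmem2 turned to 0.094 and 0.116 under these scalings and ran from -0.282 to 0.162 with 1 library left out, and Adamts4 ran from -0.587 to 0.168. Of the 6 called partner genes, Cemip alone stayed called when TGFbeta library 1 or TGFbeta library 2 was left out, and of the 9 called cell type markers 3 did in each case. Some named genes that were not called as reported passed under other settings. Chst15 passed under 6 of 13, Psph under 6 of 14 and C1qbp under 5 of 14. Timp3 and Mmp14 passed under 4 of 14 each, Adamts5 under 3 of 14 and Xylt1 under 1 of 14. With TPM alone, the depth behind low genes such as Hapln1 and Has2 is unknown, and no counting error can be given.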
